A study of Mus musculus with 6 samples.

Results

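Non-homologous end joining rejoins broken DNA without a template. Ku, a ring made of the Xrcc6 (Ku70) and Xrcc5 (Ku80) proteins, grips the broken end and recruits the kinase encoded by Prkdc, which activates the nuclease Artemis, encoded by Dclre1c. The polymerases Polm and Poll fill gaps, and the ligase encoded by Lig4 seals the break with its partners Xrcc4 and Nhej1 (XLF). Atm encodes the kinase that signals a broken chromosome to the rest of the cell. Developing B cells depend on this pathway to close the breaks that the Rag recombinase makes while antigen receptor genes are assembled. The 10 genes were chosen by name, with earlier results of these data known. All 10 were among the 26286 genes of the deposited count table and passed the low-count filter that left 12275 genes to test.

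Their expression was followed in a mouse B progenitor acute lymphoblastic leukemia in which Pax5, the factor that fixes the identity of B cells, can be restored. The groups were 3 libraries from mice fed doxycycline (dox) for 3 days to restore Pax5, sorted as GFP-mid cells, and 3 libraries from untreated mice, sorted as GFP-high cells. Both groups held cells of tri-transgenic leukemia A024 from the bone marrow of Rag1 knockout mice. The labels do not describe the transgenes, and whether the Rag1 knockout is carried by the leukemia cells as well as by the animals is not stated. The 6 libraries thus come from 1 leukemia, p-values measure the spread between mice that carried it, and sort gate and dox cannot be told apart. No dox-fed control with unchanged Pax5 was analysed here.

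Total counts were 14432213 to 15612435 in dox libraries and 14185203 to 15053258 in untreated libraries. Pax5 itself measured 227.2, 281.2 and 230.6 counts per 1000000 reads counted (CPM) in dox libraries, against 153.8, 93.5 and 105.2 CPM in untreated libraries. Every dox library lay above every untreated library, as the labels say (log2 fold change 1.07, SE 0.17, edgeR adjusted p = 0.000695). The B lineage marker Vpreb1 averaged 1386 CPM in dox libraries, against 792.7 CPM in untreated libraries. All 7 markers on that list were called higher after dox, against 27% of all genes tested. A gene was called at an adjusted p under 0.05 in the edgeR quasi-likelihood test over all genes tested.

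The end joining machinery changed unevenly after dox. Of the 10 genes, 5 rose (Polm, Dclre1c, Xrcc4, Xrcc6 and Lig4), 2 fell (Xrcc5 and Atm) and 3 did not pass the test (Prkdc, Poll and Nhej1). Over all genes tested, 27% were called higher and 26.6% lower, so that 53.6% were called, against 7 of these 10. Their median log2 fold change was 0.34, against 0.01 over all genes tested. The range ran from a rise of 17.3-fold for Polm to a fall to 52.8% of the untreated level for Xrcc5. The libraries of the groups did not overlap for 8 of the 10 genes, 6 of them higher and 2 lower after dox. Over all genes tested the groups did not overlap for 62.2%, with 31.2% of genes higher and 31% lower after dox.

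**Figure D1:**
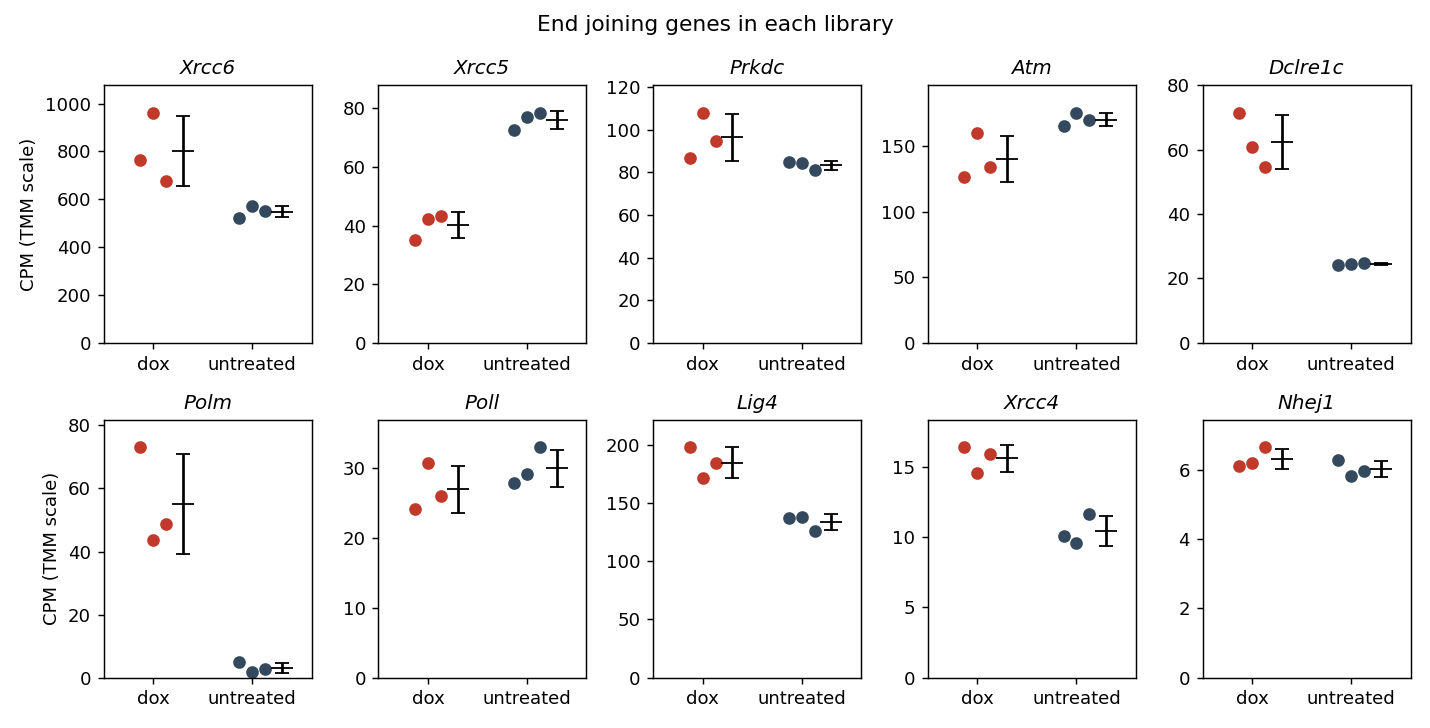
Expression of the 10 end joining genes in each library, in CPM on a linear axis from 0, with dox libraries in red left of untreated libraries in dark grey. Points are libraries 1, 2 and 3 from left to right and black bars give the mean and SD of 3. Polm lies between 43.6 and 73.0 CPM after dox and at or below 4.89 CPM without it, while Xrcc5 is lower in every dox library.

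The Ku subunits moved in opposite directions. Xrcc6 (Entrez Gene 14375) measured 764.4, 962.3 and 677.4 CPM in dox libraries, against 523.5, 569.9 and 551.5 CPM in untreated libraries. All dox libraries were above all untreated libraries, and the second dox library was highest. The rise was 1.46-fold (log2 fold change 0.55, SE 0.12, edgeR adjusted p = 0.00402).

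Xrcc5 (22596), the larger Ku subunit, measured 35.1, 42.3 and 43.1 CPM in dox libraries, against 72.4, 76.9 and 78.5 CPM in untreated libraries. The groups were far apart, with the highest dox library well under the lowest untreated library. The log2 fold change was -0.92 (SE 0.09, edgeR adjusted p = 5.1e-05).

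Per unit of gene length the subunits differed widely in both groups. Levels are compared between genes in RPKM (CPM per kilobase of deposited gene length) and so depend on that length. Xrcc6 averaged 379.3 ± 69.1 RPKM in dox libraries and 259.5 ± 11.1 RPKM in untreated libraries (SD, n = 3 each). These means were above 98.8% and 98.0% of the genes tested in these groups. Xrcc5 averaged 15.7 ± 1.72 RPKM in dox libraries and 29.7 ± 1.24 RPKM in untreated libraries. Ku works as a heterodimer of equal parts, and protein was not measured here. The ratio of Xrcc5 to Xrcc6 RPKM within a library was 0.0379, 0.0363 and 0.0526 after dox, against 0.114, 0.112 and 0.118 without it. Each dox ratio lay under each untreated ratio, 2.75-fold lower on average, while the exact two-sided permutation test gave p = 0.1, the smallest value possible for 3 libraries against 3.

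Xrcc6 shares annotated exon sequence with a neighbour. In the GENCODE M21 annotation of build GRCm38, Desi1, a deSUMOylating peptidase gene on the opposite strand, covers 344 (7.68%) of the annotated exon bases of Xrcc6. The deposited length of Xrcc6 is 2113 bases, and how much of it is shared is not known. The strand setting of the counting is not given in the sources used here. Desi1 averaged 205.1 CPM in dox libraries and 194.1 CPM in untreated libraries and did not pass the test (log2 fold change 0.08, SE 0.12, edgeR adjusted p = 0.611). The longest coding transcript of each of the 10 genes was also compared with the transcripts of other genes. Apart from that stretch of Desi1, none matched at 95% identity over 200 bases. Exons outside these longest transcripts were not searched. Overlaps on the opposite strand that cover a smaller share of the gene were annotated for 2 others. Dclre1c shares 357 bases (3.83% of its exon bases) with the histone methyltransferase gene Suv39h2. Xrcc4 shares 112 bases (2.66%) with Tmem167.

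Of the kinase genes, Atm fell slightly and Prkdc did not pass the test. Prkdc (19090), which encodes the catalytic subunit of the DNA-dependent protein kinase, measured 86.5, 108.0 and 94.7 CPM in dox libraries, against 84.6, 84.3 and 81.0 CPM in untreated libraries. The groups did not overlap, yet the lowest dox library was only slightly above the highest untreated library. Its log2 fold change was 0.21 (SE 0.09, 95% interval 0.01 to 0.41), which missed the threshold at an edgeR adjusted p of 0.0694. The adjusted p was 0.0207 without dox replicate 1 and 0.0479 with upper-quartile scaling.

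Atm (11920) measured 126.4, 159.8 and 134.3 CPM in dox libraries, against 165.2, 175.4 and 169.6 CPM in untreated libraries. All dox libraries were lower, though the second came close to the untreated range. The log2 fold change was -0.28 (SE 0.09, edgeR adjusted p = 0.0261). This call did not hold without untreated replicate 2 (adjusted p = 0.0855), untreated replicate 3 (0.0679), dox replicate 1 (0.0815) or dox replicate 3 (0.0621) in the same edgeR test, each of which left only Xrcc5 among the genes called lower.

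Atm and Prkdc belong to the same family of large kinases. The ratio of Atm to Prkdc RPKM was 1.55, 1.57 and 1.50 in dox libraries, against 2.07, 2.20 and 2.22 in untreated libraries. The ratios of the groups did not overlap (exact permutation p = 0.1). The difference of the log2 ratios was -0.49, and 3 libraries against 3 cannot pass the threshold in this test.

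Dclre1c (227525), which encodes the Artemis nuclease that opens the hairpin ends left by the Rag proteins, rose 2.55-fold. It measured 71.5, 60.8 and 54.7 CPM in dox libraries, against 24.2, 24.5 and 24.7 CPM in untreated libraries. The untreated libraries were almost identical, and each dox library was well above them (log2 fold change 1.35, SE 0.10, edgeR adjusted p = 1.33e-05). Relative to Prkdc, whose kinase Artemis needs for this cut, the RPKM ratio was 1.69, 1.15 and 1.18 in dox libraries, against 0.583, 0.592 and 0.622 in untreated libraries. Dclre1c thus lay above Prkdc per unit of length in every dox library and below it in every untreated library (exact permutation p = 0.1).

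**Figure D2:**
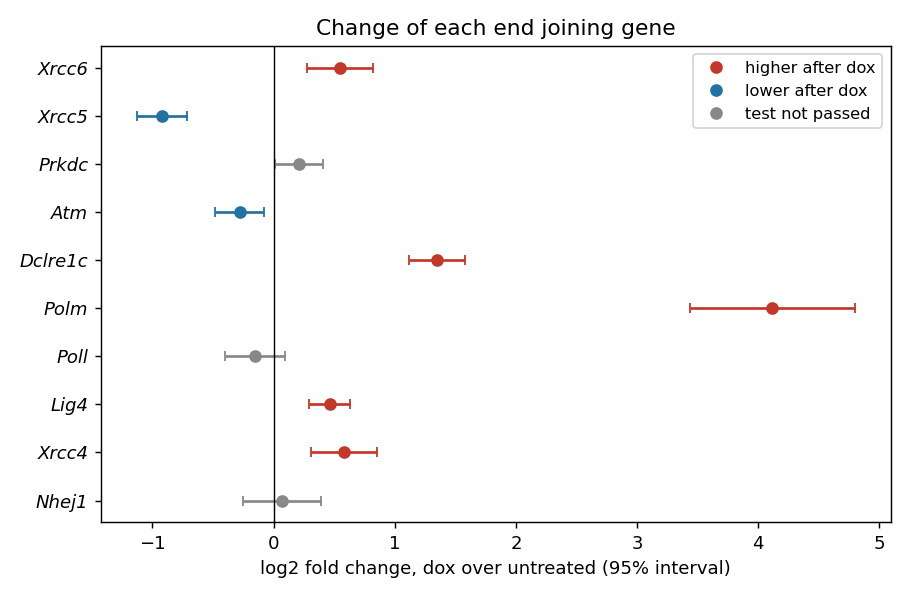
Log2 fold change of each gene, dox over untreated, with its 95% interval from the edgeR fit to all 6 libraries, ordered by role from break recognition at the top to ligation at the bottom. Polm (4.12) and Dclre1c (1.35) stand to the right, Xrcc5 (-0.92) and Atm (-0.28) to the left of 0, and the intervals of Poll and Nhej1 include 0.

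The largest change was that of Polm (54125), a template-flexible polymerase close to terminal transferase that fills gaps at broken ends, in mice mainly at light chain joints. Polm measured 73.0, 43.6 and 48.6 CPM in dox libraries, against 4.89, 1.81 and 2.86 CPM in untreated libraries. These values rest on 1110, 626 and 759 reads after dox and on 70, 27 and 42 reads without it. The lowest dox library held many times more Polm than the highest untreated library, and the spread was wide within each group. The log2 fold change was 4.12 (SE 0.30, 95% interval 3.43 to 4.80, edgeR adjusted p = 1.14e-05), and it lay between 3.83 and 4.56 over the 14 other settings and left-out libraries.

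Poll (56626), the other gap-filling polymerase, measured 24.1, 30.7 and 26.1 CPM in dox libraries, against 27.9, 29.1 and 33.0 CPM in untreated libraries. The groups overlapped and the test was not passed (log2 fold change -0.16, 95% interval -0.40 to 0.09, edgeR adjusted p = 0.258). The ratio of Polm to Poll RPKM was 2.42, 1.13 and 1.49 in dox libraries, against 0.14, 0.0497 and 0.0692 in untreated libraries. Polm therefore lay above Poll in each dox library and far below it in each untreated library, and the ratio was on average 20.4-fold higher after dox (exact permutation p = 0.1).

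The remaining polymerases of the same X family did not pass the test. Polb, the polymerase of base excision repair, averaged 26.6 CPM in dox libraries and 22.1 CPM in untreated libraries (edgeR adjusted p = 0.0654). Dntt, which encodes terminal transferase and adds bases without a template at V(D)J joints, averaged 27.2 CPM in dox libraries and 35.1 CPM in untreated libraries (edgeR adjusted p = 0.392).

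The ligase gene and its scaffold both rose. Lig4 (319583), the ligase of this pathway, measured 198.0, 171.7 and 184.8 CPM in dox libraries, against 137.6, 138.5 and 125.8 CPM in untreated libraries. Every dox library was higher, a rise of 1.38-fold (log2 fold change 0.46, SE 0.08, edgeR adjusted p = 0.000792). Xrcc4 (108138), the scaffold that stabilises the ligase, measured 16.4, 14.5 and 15.9 CPM in dox libraries, against 10.1, 9.59 and 11.6 CPM in untreated libraries. Again no library of one group reached the other, and the rise was 1.50-fold (log2 fold change 0.58, SE 0.12, edgeR adjusted p = 0.00283).

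The balance of Xrcc4 to Lig4 RPKM was 0.218, 0.224 and 0.227 in dox libraries, against 0.193, 0.183 and 0.244 in untreated libraries. These ratios overlapped (difference of log2 ratios 0.12, exact permutation p = 0.4). Of the 5 ratios computed, it was the only ratio whose groups overlapped, and the p-values adjusted over the 5 were 0.125 for the others and 0.4 for this ratio.

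Nhej1 (75570), which bridges the ends beside Xrcc4, measured 6.12, 6.20 and 6.66 CPM in dox libraries, against 6.29, 5.84 and 5.98 CPM in untreated libraries. The groups overlapped (log2 fold change 0.07, SE 0.14, 95% interval -0.25 to 0.39, edgeR adjusted p = 0.714). With 87 to 104 reads per library, it was the gene with the fewest reads in dox libraries.

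**Figure D3:**
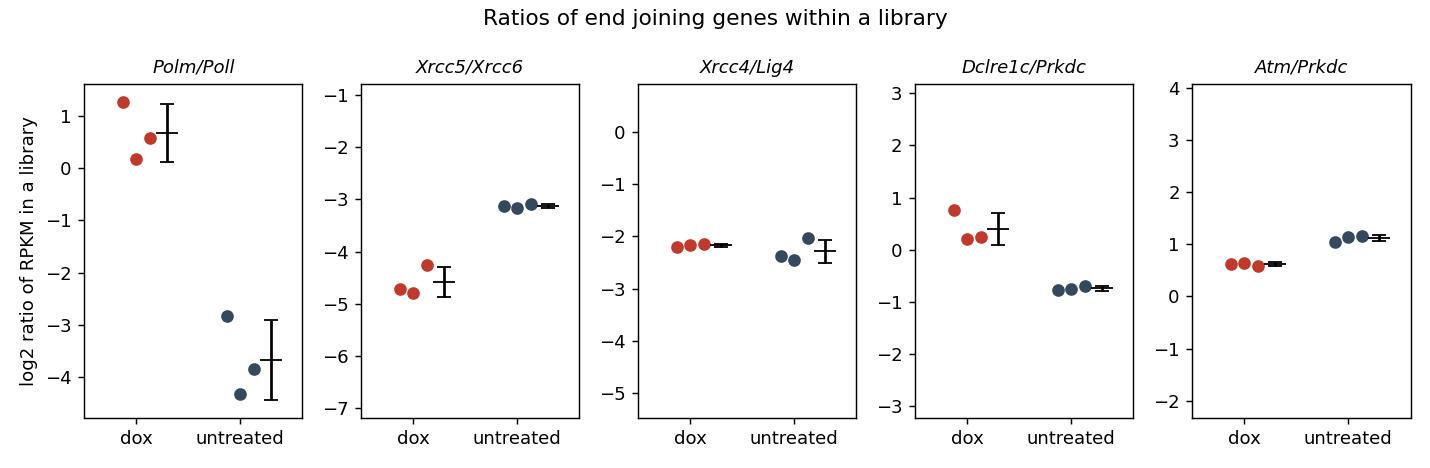
Log2 ratio of the RPKM of paired end joining genes within each library, with dox libraries in red left of untreated libraries in dark grey, every panel spanning the same number of log2 units. Black bars give the mean and SD of 3 libraries. The groups are apart for Polm/Poll, Xrcc5/Xrcc6, Dclre1c/Prkdc and Atm/Prkdc and overlap for Xrcc4/Lig4.

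By level per length, Xrcc6 and Lig4 led the 10 genes in both groups, and the order below them differed. In dox libraries the order was Xrcc6, Lig4, Polm, Xrcc5, Atm, Poll, Xrcc4, Dclre1c, Prkdc and Nhej1, at mean levels of 379.3 down to 7.35 RPKM. Neighbours in that order overlapped between Polm and Xrcc5, between Atm, Poll, Xrcc4 and Dclre1c in turn, and between Prkdc and Nhej1. In untreated libraries the order was Xrcc6, Lig4, Xrcc5, Atm, Poll, Nhej1, Xrcc4, Prkdc, Dclre1c and Polm, at 259.5 down to 1.09 RPKM. There Atm overlapped with Poll, Nhej1 with Xrcc4 and Xrcc4 with Prkdc. Polm was thus the lowest of the 10 without dox, above 10.9% of the genes tested, and the third highest after it, above 59.6%.

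The dox libraries did not rank alike for all genes. Dox replicate 1 held the highest dox level of 4 genes (Polm, Dclre1c, Lig4 and Xrcc4), dox replicate 2 that of another 4 (Xrcc6, Prkdc, Atm and Poll) and dox replicate 3 that of Xrcc5 and Nhej1. Markers of marrow cells other than B cells also differed between these libraries. The summed level of 10 neutrophil markers was 499.9, 106.1 and 236.6 CPM in dox replicates 1, 2 and 3, against 83.3 to 107.1 CPM in untreated libraries. All 7 that could be tested were called higher after dox, against 27% of all genes tested, but the groups did not overlap for only 3 of the 7. Mpo, with 3, 10 and 20 reads in untreated libraries, could pass the low-count filter only with the dox libraries, where it is high. S100a9 and S100a8 were the most abundant, averaging 93.1 and 62.1 CPM in dox libraries, against 32.8 and 19.1 CPM in untreated libraries. The dox values of S100a9 were 169.9, 31.2 and 78.2 CPM in replicates 1, 2 and 3.

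Polm followed the order of the neutrophil sum in both groups, since untreated replicates 1, 2 and 3 held sums of 107.1, 83.3 and 98.3 CPM. Rag1 also had that order in both groups, at 1677, 1172 and 1268 CPM after dox and 236.4, 62.6 and 98.0 CPM without it. Rag2 had it in untreated libraries only. In dox replicate 2 the neutrophil sum lay within the untreated range, while the sum of 11 macrophage markers, 37.1 CPM, lay above its untreated range. Polm measured 43.6 CPM and Dclre1c 60.8 CPM in that library. Without dox replicate 1 the log2 fold change of Polm was 3.85. In that fit 6 of the 10 genes were higher (Prkdc in addition) and 1 was lower, while 46.4% of all genes tested were called. The 11 macrophage markers summed to 40.9, 37.1 and 32.5 CPM in dox replicates 1, 2 and 3. Untreated libraries held sums of 7.24 to 13.6 CPM. Of 10 macrophage markers tested, 9 were called higher, the exception being Cd68, against 27% of all genes tested. Mertk held 16, 19 and 13 reads in dox libraries, against 1, 0 and 2 in untreated libraries. Each of the 9 had at least 1 untreated library under the minimum of the low-count filter. They could pass that filter only with the dox libraries, where they are high, so this count is not read as a result. Vcam1 was the most abundant, at 9.97 CPM in dox libraries and 1.40 CPM in untreated libraries. The part of these cells in the changes of the end joining genes was not tested.

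The other marker lists were near the bottom of the scale. Erythroid markers summed to 1.25 to 7.30 CPM in dox libraries and 3.82 to 5.31 CPM in untreated libraries, with Hbb-b1 and Hba-a1 most abundant. T and NK cell markers summed to 2.76 to 9.53 CPM in dox libraries and 3.21 to 5.03 CPM in untreated libraries, with Cd3e and Cd8a at 0 in all 6 libraries and Klrb1c most abundant. Megakaryocyte markers stayed at or below 0.658 CPM. Stromal markers, led by Col1a1 and Cxcl12, summed to 1.98 to 3.69 CPM in dox libraries and 0.671 to 2.31 CPM in untreated libraries. In bulk samples, fewer cells of a type and less RNA per cell cannot be told apart.

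Genes around the core pathway were followed in lists by repair route. Over all genes tested, 27% were called higher and 26.6% lower, and the counts of each list stand beside these shares. Of 5 accessory end joining genes, 2 rose, 1 fell and 2 did not pass (Aptx and Cyren). That is near the 53.6% called over all genes tested. Paxx, a structural relative of Xrcc4 that binds Ku, averaged 17.8 CPM in dox libraries and 11.6 CPM in untreated libraries (log2 fold change 0.62, SE 0.17, edgeR adjusted p = 0.0127). Aplf, another Ku-binding factor, fell to 11.5 CPM in dox libraries, against 15.5 CPM in untreated libraries (edgeR adjusted p = 0.0321).

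Break signalling genes, which act with Atm, were mostly lower. Of 15 measured, 10 fell, 1 rose (Shld1, a shieldin subunit that limits end resection) and 4 did not pass (Mdc1, Trp53bp1, Shld2 and Kat5), with a median log2 fold change of -0.49. The complex that senses ends and activates Atm fell in all its subunits, by 1.39 for Nbn, 0.60 for Rad50 and 0.49 for Mre11a on the log2 scale (edgeR adjusted p of 0.000495 or less). H2ax, the histone that Atm and its relatives phosphorylate around a break, averaged 249.8 CPM in dox libraries and 529.3 CPM in untreated libraries. Chek2, a kinase downstream of Atm, averaged 16.3 CPM in dox libraries and 30.5 CPM in untreated libraries (log2 fold change -0.90, SE 0.09, edgeR adjusted p = 4.52e-05). Trp53bp1, which favours end joining over resection, measured a log2 fold change of 0.01 (SE 0.08).

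Alternative end joining, which uses short matches exposed by resection, held 6 lower genes of 7. Polq, its polymerase, averaged 36.6 CPM in dox libraries and 71.6 CPM in untreated libraries. The replication-linked nuclease gene Fen1 and ligase gene Lig1 changed by -1.12 (SE 0.07) and -1.21 (SE 0.09) on the log2 scale (edgeR adjusted p of 1.02e-05 or less). Xrcc1, a scaffold shared with base excision repair, was the exception, at 175.5 CPM in dox libraries and 93.6 CPM in untreated libraries (log2 fold change 0.91, SE 0.09, edgeR adjusted p = 4.9e-05).

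Homologous recombination, which copies from the sister chromatid, held 10 lower genes of 12, with a median log2 fold change of -1.21. The resection nuclease gene Exo1 changed by -1.44 (SE 0.08) and Bard1, the partner of Brca1, by -1.36 (SE 0.09) on the log2 scale (edgeR adjusted p of 9.23e-06 or less). Rad52 rose by 0.48 (SE 0.09, edgeR adjusted p = 0.00184) and Xrcc3 did not pass. The difference between these lists and the 10 end joining genes was not tested as such, since they are described by their counts and medians alone.

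**Figure D4:**
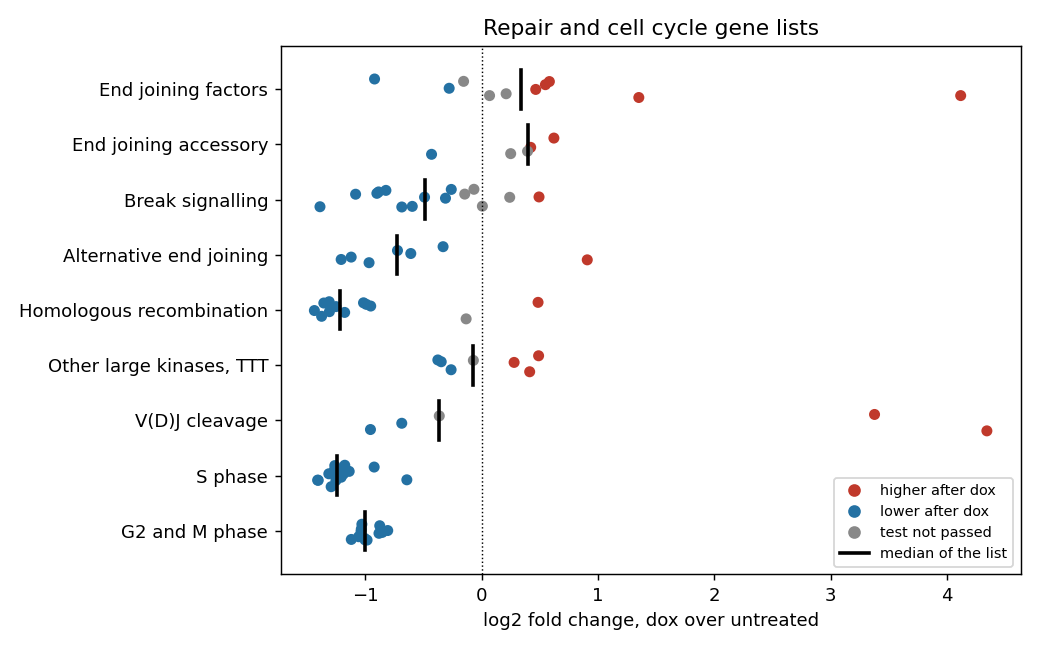
Log2 fold change, dox over untreated, of each tested gene in lists of repair and cell cycle genes, 1 point a gene, coloured by its call, with the vertical position within a list set only to separate points. Black lines mark list medians, 0.34 for the end joining factors, -0.49 for break signalling, -0.72 for alternative end joining and -1.21 for homologous recombination.

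Genes of cell division moved with these lists. Each of 15 S phase genes and each of 12 genes active in G2 and mitosis fell after dox, with medians of -1.25 and -1.004. Over all genes tested, 26.6% were called lower. The S phase genes summed to 1891 to 2074 CPM in dox libraries, against 4341 to 4835 CPM in untreated libraries. Mcm2, E2f1 and Cdc6 had the smallest p-values and changed by -1.21, -1.41 and -1.40 on the log2 scale, and Aurkb, Mki67 and Kif11 led the G2 and M phase list at -1.03, -0.98 and -1.12. The part of proliferation in the changes of the repair genes was not tested.

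The V(D)J cleavage genes, whose breaks this pathway closes, included the other large rises. Rag2 averaged 30.7 CPM in dox libraries and 1.52 CPM in untreated libraries (log2 fold change 4.34, SE 0.42, edgeR adjusted p = 4.54e-05). It held 535, 411 and 441 reads in dox libraries, against 46, 5 and 15 in untreated libraries. Rag2 could pass the low-count filter only with the dox libraries, where it is high. Rag1 averaged 1372 CPM in dox libraries and 132.3 CPM in untreated libraries (log2 fold change 3.38, SE 0.42, edgeR adjusted p = 0.000185). The cofactors Hmgb1 and Hmgb2, which bend DNA at the cleavage site, fell by 0.69 and 0.96 on the log2 scale. Dntt is the remaining gene of that list.

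Of the other large kinases and the TTT complex that stabilises them, 3 rose (Mtor, Smg1 and Trrap), 3 fell (Atr, Telo2 and Tti1) and 1 did not pass (Tti2). Over all genes tested, 27% were called higher and 26.6% lower. Mtor averaged 650.9 CPM in dox libraries and 463.7 CPM in untreated libraries, and Trrap 273.8 CPM in dox libraries and 225.7 CPM in untreated libraries. Tti1, a TTT subunit, averaged 57.2 CPM in dox libraries and 74.3 CPM in untreated libraries (log2 fold change -0.38, SE 0.07, edgeR adjusted p = 0.00155).

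Several end joining genes start near the start of a gene on the opposite strand in the GENCODE M21 annotation of GRCm38. Poll starts 84 bases from Gm17018, for which no value was found by name. Prkdc starts 466 bases from Mcm4, a helicase subunit gene that averaged 188.1 CPM in dox libraries and 452.6 CPM in untreated libraries (log2 fold change -1.27, SE 0.08, edgeR adjusted p = 6.65e-06). Prkdc itself, at 0.21, did not pass the test. Atm starts 307 bases from Npat, a histone gene activator that fell to 65.8 CPM in dox libraries, against 98.8 CPM in untreated libraries (log2 fold change -0.59, SE 0.08, edgeR adjusted p = 0.000216). Lig4 starts 21 bases from Abhd13, a hydrolase-like gene, which did not pass the test (0.19, SE 0.07, adjusted p = 0.0544), and Xrcc4 starts 485 bases from Tmem167, which did not pass either (-0.15, SE 0.08, adjusted p = 0.125). These neighbours were chosen after the values of the 10 genes had been seen.

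Promoter sequences of RefSeq on build GRCm38.p6, from 250 bases before to 50 bases after a start, were at hand for 8 of the 10 genes (9 promoters, since Lig4 has 2 starts). The promoters of the gene with the largest rise and of the Ku subunits are shown, read 5′ to 3′ on the strand of the gene, with the words found by the search in capitals.
Polm, chr11:5837967-5838266, minus strand: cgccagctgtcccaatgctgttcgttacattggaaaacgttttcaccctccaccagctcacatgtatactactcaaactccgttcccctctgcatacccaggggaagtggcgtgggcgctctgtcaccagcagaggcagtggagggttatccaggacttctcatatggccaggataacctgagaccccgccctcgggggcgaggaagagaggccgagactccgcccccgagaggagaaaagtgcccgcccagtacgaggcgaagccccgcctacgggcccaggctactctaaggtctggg
Xrcc6, chr15:82016119-82016418, plus strand: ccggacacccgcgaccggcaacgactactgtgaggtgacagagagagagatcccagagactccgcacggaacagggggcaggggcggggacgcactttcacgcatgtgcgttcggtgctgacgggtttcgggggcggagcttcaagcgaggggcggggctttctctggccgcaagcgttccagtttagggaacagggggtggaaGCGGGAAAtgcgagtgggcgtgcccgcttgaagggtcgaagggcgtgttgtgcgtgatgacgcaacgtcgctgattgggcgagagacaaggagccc
Xrcc5, chr1:72307171-72307470, plus strand: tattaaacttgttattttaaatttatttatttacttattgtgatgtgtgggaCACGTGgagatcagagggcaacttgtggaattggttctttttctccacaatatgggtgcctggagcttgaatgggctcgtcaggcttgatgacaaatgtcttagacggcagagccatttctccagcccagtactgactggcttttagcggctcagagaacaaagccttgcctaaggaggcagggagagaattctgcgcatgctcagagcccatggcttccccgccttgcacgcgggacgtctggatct

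Each promoter was searched on both strands for 3 kinds of word. The E-box CACGTG was found in 1 of the 9, that of Xrcc5, starting 198 bases before the start site, against 7.99% of 21591 promoters of genes in the table. An E2F-type word (TTTCGCGC, TTTGGCGC, TTTCCCGC or TTTGCCGC) was found in 1, that of Xrcc6, as GCGGGAAA on the gene's strand from 46 bases before the start site, against 2.88% of all promoters. The word GCGTGAC, the core of a Pax5 motif, was found in none of the 9, against 2.69% of all promoters. The words do not overlap in these promoters, and a match describes the letters only.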

How the data were processed

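RNA sequencing was measured in 6 libraries. The values used are the deposited counts, whole numbers of reads per gene by Entrez Gene identifier, beside a gene length. The submitters' processing notes name CASAVA 1.8.2, featureCounts and build mm9. The sources used here do not give the aligner, annotation, strand setting or featureCounts version, and overlapping genes can therefore share reads. The 6 per-sample files held the same counts as the series table. Symbols came from RefSeq GRCm38.p6, which matched 24176 of 26286 identifiers, and no coordinates were carried between builds.

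Genes were filtered with filterByExpr (minimum count 10), which left 12275 genes with 99.93% of counts, scaled with TMM factors (trimmed mean of M values) and compared without covariates by edgeR 4.0.16 (quasi-likelihood test, R 4.3.3), with Benjamini-Hochberg adjustment over all genes tested. The SE is the log2 fold change divided by the square root of F. RPKM is TMM-scaled CPM per kilobase of deposited length. Ratios were compared by exact permutation over libraries.

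Members and lists were chosen with earlier results of these data known. Of 143 list entries, 142 matched the table, and Shld3 was not analysed here. Values are given for all 10 members, the 3 genes with the smallest p in each other list, the 2 most abundant markers of each marker list and genes behind a count of 5 or fewer, except that some of these are not reported here. The other Atm-activating subunits, Trp53bp1, Hmgb2 and the neighbours were chosen after their values were seen. The alternatives were other scalings, other filters, DESeq2 1.42.0, limma 3.58.1 voom, the replicate block and leaving out each library. The fit was tested on simulated counts.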

Additional observations from a re-analysis of the deposited data

How the results depend on the processing

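Directions of all 10 genes were kept in every setting tried, which were scaling by total counts, by upper quartiles or by DESeq2 size factors, 1 CPM in 3 libraries or no filter, limma voom, the DESeq2 test, the replicate block and each of 6 left-out libraries. The genes called higher numbered 5 in all of them except upper-quartile scaling and the fit without dox replicate 1, where Prkdc made 6. The genes called lower numbered 2, and 1 to 2 over the left-out libraries, because Atm was lost in 4 of them (adjusted p of 0.0621 to 0.0855). Of all genes tested, 43.9% to 51.1% were called over the left-out libraries and 38.1% to 55.3% over the other settings. The log2 fold change lay between 1.24 and 1.43 for Dclre1c, -0.98 and -0.83 for Xrcc5, 0.39 and 0.65 for Xrcc6, 0.52 and 0.66 for Xrcc4, and 0.41 and 0.51 for Lig4, all with adjusted p of 0.0191 or less.

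Same-numbered libraries deviated together for replicates 1 and 2 (correlations across genes 0.315 and 0.293) and not for replicate 3 (-0.0397). Libraries with unlike numbers were not compared in this way, so these values do not settle whether the numbers mark pairs. The main fit did not take them as pairs. With the replicate block, 5 genes were higher and 2 lower, as without it, and 55.3% of all genes were called. The SE of the log2 fold change of Polm was 0.134 with the block, against 0.302 in the main fit. The 5 ratios were recomputed from CPM + 0.5 per length and without each library in turn, and kept their sign in these. Searching only the gene's own strand, an E2F-type word was found in 1.48% and the Pax5 core in 1.51% of promoters, by construction fewer than on both strands, and the E2F-type word of Xrcc6 was no longer counted, which left 0 of the 9 promoters. For Nhej1, at 87 to 104 reads per library, the 95% interval allows a log2 change of up to 0.39.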
